A study of Mus musculus with 9 samples.

Results

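The transcription factor p53 and 31 genes of its network, most of them direct targets, were followed in C2C12 muscle fibres given extra one-carbon metabolites. The 32 members were taken by gene symbol from a list, of 24063 symbols in the count tables, and all 32 passed the filter on low counts that kept 14006 genes. That list was chosen with earlier results of these data known. C2C12 cells are mouse myoblasts of an established line, which stop dividing and fuse to form fibres once serum is reduced. All groups were wild type C2C12 differentiated in DMEM with 2% FBS and labelled day 3. Control fibres had no supplement, 1C-MIM fibres received 6 metabolites related to the one-carbon network (One-Carbon Metabolite Induced Medium), and scramble fibres received 6 metabolites unrelated to it. Each group had 3 libraries. Which metabolites were added, and at what dose, is not stated in the labels. Nor do these say if replicates were separate cultures, so the p-values reflect the spread among libraries alone, and that spread may be technical.

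In most resting cells p53 protein is kept low because MDM2, itself the product of a p53 target gene, marks it for degradation. Stress to DNA, to ribosomes or to nutrient supply releases that brake, and p53 then binds DNA as a tetramer at pairs of a short half-site. Its targets halt the cell cycle, repair DNA, adjust metabolism and antioxidant defence, or start apoptosis, and several of them feed back on p53. Much of the control of p53 acts on the protein, which RNA counts do not show.

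Sequence near the start sites of the members was searched for the canonical p53 half-site decamer, a pattern that reads alike on both strands. The windows were the 250 bases before each start in the RefSeq promoter table (build GRCm38.p6), which held 28 windows for 22 of the 32 members. A half-site lay in 10 of the 28 windows, 35.7%, each of a different member, against 7.13% of all 32851 windows of that length. Most members were listed because they are p53 targets, so the higher share is not a result about 1C-MIM. Pairs of half-sites with at most 13 bases between them were in 0 member windows and in 0.0639% of all windows. The stretches below show matches of 5 members whose own RNA is described further on and whose printed stretch holds no annotated exon. Ppm1d, which was not called in either 1C-MIM comparison, also met these terms, but its stretch is not printed. Capitals mark the half-site, and each stretch runs 5′ to 3′ on the gene's strand.
Mdm2 (chr10:117710895-117710984, minus strand): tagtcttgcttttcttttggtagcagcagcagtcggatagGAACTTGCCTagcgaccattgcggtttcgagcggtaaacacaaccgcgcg
Ccng1 (chr11:40755422-40755511, minus strand): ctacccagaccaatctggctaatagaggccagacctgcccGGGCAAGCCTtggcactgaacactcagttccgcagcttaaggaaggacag
Bax (chr7:45467050-45467139, minus strand): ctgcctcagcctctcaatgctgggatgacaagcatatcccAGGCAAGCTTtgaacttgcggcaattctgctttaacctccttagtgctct
Sesn1 (chr10:41887226-41887315, plus strand): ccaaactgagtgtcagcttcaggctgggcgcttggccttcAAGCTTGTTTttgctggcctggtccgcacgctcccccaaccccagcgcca
Polk (chr13:96519369-96519437, minus strand): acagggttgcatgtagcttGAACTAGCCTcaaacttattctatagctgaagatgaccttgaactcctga
The half-site began 186 bases before the start for Mdm2, 185 for Ccng1, 201 for Bax, 173 for Sesn1 and 231 for Polk. Sesn1, Polk and Aen each had another window, at a different start, without a half-site. For all of these the start with the match lies downstream of the other. The other matches were GGACTTGCCC before Trp53, GGGCTAGCCC before Gadd45a, GGGCTTGTCC before Aen, GGGCATGCCC before Ei24 and GAGCTTGCTC before Ppm1d. The stretch around the Trp53 match overlapped an exon of the neighbouring Wrap53. Those of Gadd45a, Aen and Ei24 overlapped an annotated exon of the same gene. A match is a description of these letters and not a measured binding site.

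The members rose more often than they fell with 1C-MIM. Against control, 16 of the 32 rose, 4 fell and 12 were not called, by edgeR's quasi-likelihood test at a Benjamini-Hochberg adjusted p below 0.05 over all 14006 genes. That is 62.5% of members called, where 47.3% of all tested genes were called, 22.9% of them higher and 24.3% lower. Against scramble, 15 members rose, 4 fell and 13 were not called, or 59.4%, beside 46% of all genes, with 22.9% higher and 23.2% lower. The 1C-MIM libraries serve in both comparisons, so these counts are not independent. Because the members were chosen with earlier results of these data known, their shares beside all genes are descriptive only. Called higher against both were 14 members, where 20.1% of all genes were, and called lower against both were 2, Phlda3 and Polk, where 20.8% of all genes were. No member was called in opposite directions.

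The changes were mostly small. The median log2 fold change of the 32 members was 0.22 against control and 0.25 against scramble, while the median of all genes was -0.01 and 0.00. Only Zmat3 and Trp53inp1 were called with at least a 2-fold change in either comparison. Libraries of the groups did not overlap for 21 members against control, where 55.5% of all genes did not, and for 22 members against scramble, where 59.5% did not. Leaving out 1 library kept the number of risen members between 14 and 17 against control and between 13 and 17 against scramble. Calls over all genes then ran from 5487 to 7195 against control and from 5267 to 7473 against scramble. The number of fallen members was less steady. Against control it was 2 without control replicate 2, 1C-MIM replicate 2, 1C-MIM replicate 3 or scramble replicate 1. Against scramble it was 2 without 1C-MIM replicate 2 or scramble replicate 1, and 1 without 1C-MIM replicate 3, scramble replicate 2 or scramble replicate 3.

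**Figure D1:**
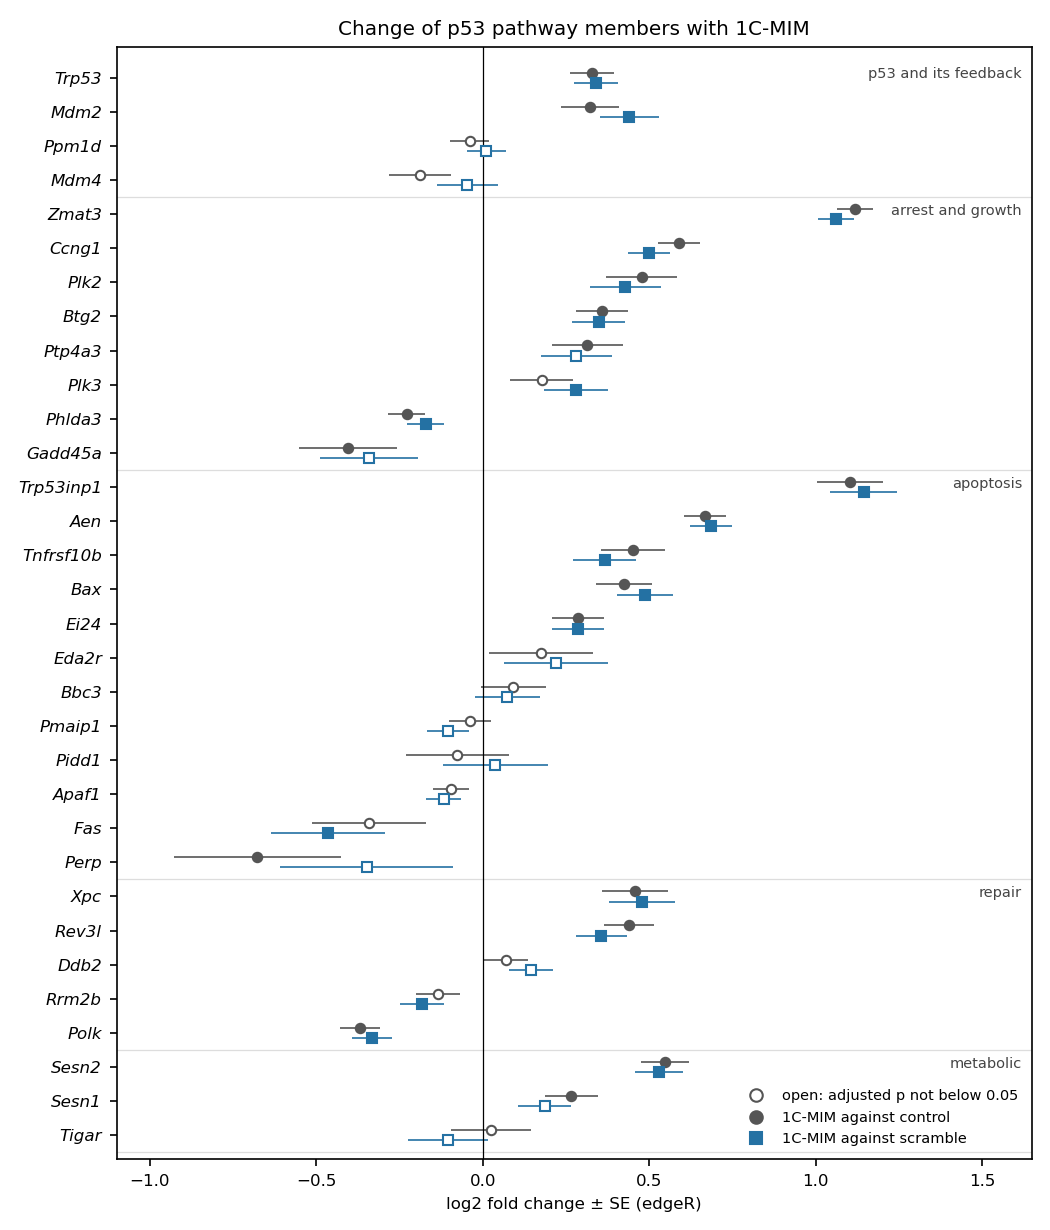
Log2 fold changes (horizontal axis, ± SE from edgeR) of the 32 members with 1C-MIM against control (circles) and against scramble (squares), by role; filled symbols have an adjusted p below 0.05. Zmat3 and Trp53inp1 lie past 1 in both comparisons, and Polk and Phlda3 are filled to the left of 0 in both.

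The unrelated metabolites gave no call. Between scramble and control, edgeR's quasi-likelihood test called 0 of the 32 members and 0 of 14006 genes in total (0% in either direction, 0% higher, 0% lower), and 0 members had an unadjusted p below 0.05, against 482 of all genes. DESeq2 called 4 genes in all and limma-voom 0, none of them members. The members' log2 differences between scramble and control ran from -0.33 for Perp to 0.13 for Tigar, with SEs from 0.0531 to 0.24. Libraries of scramble and control did not overlap for 3 members (Zmat3, Phlda3 and Tigar), beside 9.09% of all genes.

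The gene for p53 itself rose. Trp53 stood at 86.6, 96.5 and 102.3 CPM (counts scaled to a common normalized library size) in control, 125.0, 111.8 and 121.8 CPM in 1C-MIM, and 97.2, 94.6 and 91.2 CPM in scramble. Every 1C-MIM library lay above the other 6. The log2 fold change was 0.33 ± 0.0657 (SE) against control (edgeR adjusted p = 0.0019) and 0.34 ± 0.0658 against scramble (adjusted p = 0.0016). Mdm2, the ubiquitin ligase that degrades p53, stood at 93.9, 78.7 and 74.5 CPM in control, 106.1, 102.3 and 100.5 CPM in 1C-MIM, and 83.7, 72.8 and 70.9 CPM in scramble. It rose by 0.32 ± 0.087 against control (adjusted p = 0.011) and by 0.44 ± 0.0873 against scramble (adjusted p = 0.002), again with no overlap. The other feedback genes were not called. Mdm4, a relative of MDM2 that holds back p53's activity, averaged 47.6 ± 7.09 CPM (SD, n = 3) in control and 41.7 ± 1.25 in 1C-MIM. Its log2 change against control was -0.19 (edgeR adjusted p = 0.12), -0.26 without control replicate 3 (adjusted p = 0.0487) and -0.06 without control replicate 1 (adjusted p = 0.417). Ppm1d, a phosphatase that switches the response off, averaged 19.6 ± 0.484 CPM in control, 19.1 ± 0.279 in 1C-MIM, with 18.9 ± 0.681 in scramble.

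Among 8 members grouped under arrest and growth, 5 rose and 2 fell against control, and 5 rose and 1 fell against scramble. That was 87.5% called against control and 75% against scramble, beside 47.3% and 46% of all genes. Zmat3, an RNA-binding protein and growth suppressor, had the largest rise against control. Its levels were 23.6, 23.4 and 23.8 CPM in control, 53.2, 48.1 and 52.5 in 1C-MIM, with 24.6, 25.3 and 23.9 in scramble. The 1C-MIM libraries were far above the other 6. Its log2 fold change was 1.12 ± 0.0551 against control (edgeR adjusted p = 3.4e-07) and 1.06 ± 0.0552 against scramble (adjusted p = 6.3e-07). Ccng1, cyclin G1, a regulator of MDM2 activity, went from 184, 201 and 189 CPM in control to 275, 281 and 307 in 1C-MIM, with 189, 211 and 210 in scramble. It rose by 0.59 ± 0.0626 against control (adjusted p = 3.1e-05) and 0.50 ± 0.0626 against scramble (adjusted p = 9.8e-05), with no overlap.

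The polo-like kinase Plk2 averaged 102.4 ± 9.91 CPM in control, 142.6 ± 18.2 in 1C-MIM, with 105.9 ± 10.9 in scramble (SD, n = 3), a rise of 0.48 ± 0.106 against control (edgeR adjusted p = 0.0042) and 0.43 ± 0.106 against scramble (adjusted p = 0.0077). Btg2, an antiproliferative factor that promotes mRNA decay, averaged 31.4 ± 2.56, 40.3 ± 3.68 and 31.7 ± 1.13 CPM in the same order. It rose by 0.36 ± 0.0781 and 0.35 ± 0.0783 (adjusted p = 0.0033 and 0.004), and its 1C-MIM libraries lay above all others. Calls on the next pair depended on single libraries. Plk3, a related kinase, was called higher against scramble alone (0.28, adjusted p = 0.033), and leaving out any of 5 libraries (1C-MIM replicates 1, 2 and 3 and scramble replicates 2 and 3) moved the adjusted p to between 0.0673 and 0.101. Its exons share up to 84 bases with Tctex1d4 on the other strand. The phosphatase gene Ptp4a3 was called higher against control alone (0.31, adjusted p = 0.032), and without control replicate 2 or 3 or 1C-MIM replicate 1 or 3 the adjusted p was between 0.0834 and 0.118. Against scramble its adjusted p was 0.052, and it was between 0.013 and 0.0489 without control replicate 1 or 3, 1C-MIM replicate 2 or scramble replicate 1. With each transcript as its own feature, all 4 Ptp4a3 transcripts were called higher in both comparisons, the least clear at an adjusted p of 0.041.

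A pair of the arrest and growth members fell against control. Phlda3, an inhibitor of AKT signalling, stood at 155, 156 and 162 CPM in control, 146, 125 and 132 in 1C-MIM, with 154, 149.5 and 150.5 in scramble. All 1C-MIM libraries were below the others. It fell by 0.23 on the log2 scale against control (edgeR adjusted p = 0.0061) and by 0.17 against scramble (adjusted p = 0.027), where leaving out 1C-MIM replicate 2 or 3 or any scramble library moved the adjusted p to between 0.0576 and 0.114. Gadd45a, a sensor of stress that couples to MAP kinases and DNA repair, stood at 232.5, 166.8 and 150.4 CPM in control, 135.6, 144.3 and 135.5 in 1C-MIM, with 195.6, 166.6 and 163.9 in scramble. The 1C-MIM libraries were lowest, and control replicate 1 was far above the rest. Its log2 change was -0.40 ± 0.147 against control (adjusted p = 0.049) and -0.34 ± 0.147 against scramble (adjusted p = 0.088). Without control replicate 2, or any 1C-MIM or scramble library, the adjusted p against control was between 0.0518 and 0.12. Without control replicate 1 the change against control was smaller, at -0.20 (adjusted p = 0.0437). Against scramble the adjusted p was between 0.0011 and 0.0398 without control replicate 1 or 3.

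**Figure D2:**
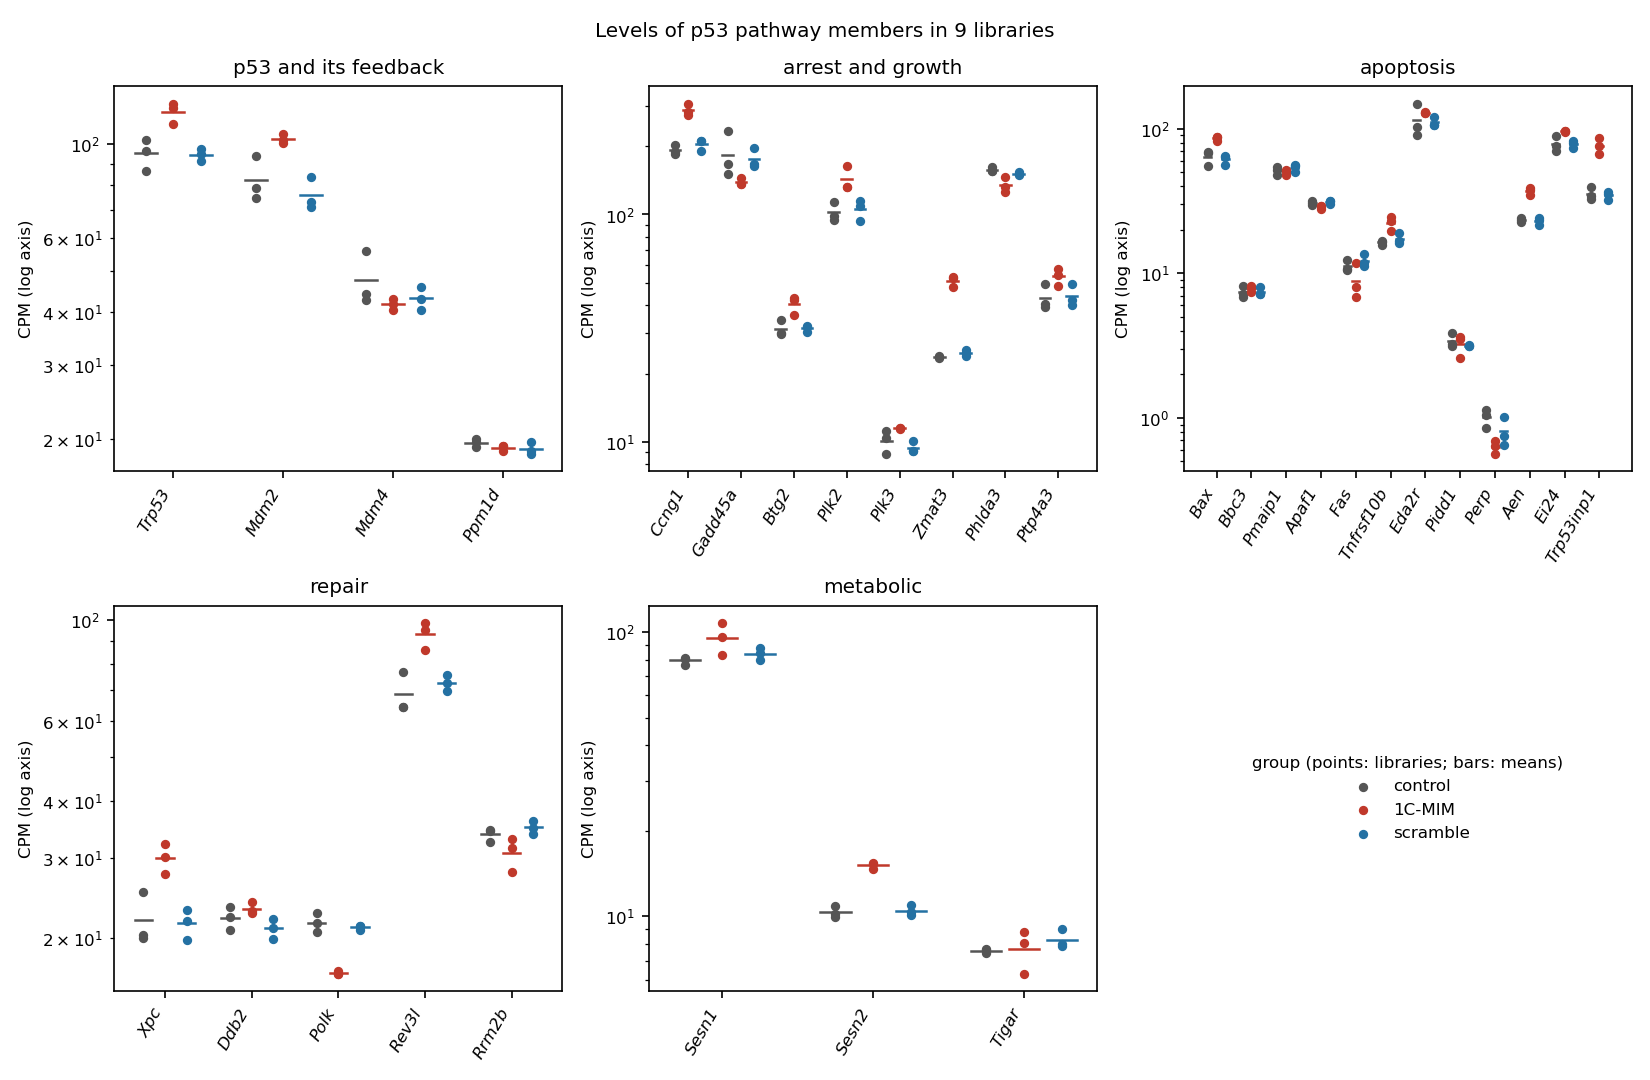
CPM on a log axis of each member in the 9 libraries, in panels by role; points are libraries (control grey, 1C-MIM red, scramble blue) and bars are group means. The 1C-MIM points of Zmat3, Trp53inp1, Aen, Ccng1 and Sesn2 are above every other point of the same gene, and those of Polk are below.

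Of 12 apoptosis members, 5 rose and 1 fell in each comparison, with Perp falling against control and Fas against scramble. That was 50% called in each, near the share of all genes called (47.3% against control and 46% against scramble). Trp53inp1, a stress-induced nuclear protein that aids p53 activity and autophagy, stood at 39.6, 32.7 and 34.5 CPM in control, 67.0, 75.6 and 86.7 in 1C-MIM, with 32.2, 36.2 and 35.4 in scramble. It rose by 1.10 ± 0.0993 against control (edgeR adjusted p = 1.3e-05) and by 1.14 ± 0.0997 against scramble (adjusted p = 1.2e-05). Aen, an exonuclease that digests DNA in dying cells, went from 24.1, 22.5 and 23.2 CPM in control to 37.7, 34.7 and 38.6 in 1C-MIM, with 23.4, 24.0 and 21.6 in scramble. For both genes every 1C-MIM library was above the other 6. The rise of Aen was 0.67 ± 0.0632 against control (adjusted p = 1.4e-05) and 0.69 ± 0.0635 against scramble (adjusted p = 1.5e-05).

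Bax, which opens pores in the outer mitochondrial membrane, stood at 55.4, 69.0 and 67.5 CPM in control, 82.4, 87.3 and 87.9 in 1C-MIM, with 56.0, 64.5 and 63.3 in scramble. It rose by 0.42 ± 0.0831 (edgeR adjusted p = 0.0017) and 0.49 ± 0.0833 (adjusted p = 0.00077) against control and scramble, without overlap. Its exons share up to 140 bases with Gm45808 on the same strand, so its counts are uncertain to that extent. Tnfrsf10b, a death receptor for TRAIL, averaged 16.3 ± 0.554 CPM in control, 22.3 ± 2.64 in 1C-MIM, with 17.3 ± 1.56 in scramble, a rise of 0.45 ± 0.0947 and 0.37 ± 0.0948 (adjusted p = 0.0026 and 0.0087). Ei24, a membrane protein of the endoplasmic reticulum linked to autophagy, averaged 78.5 ± 9.78, 95.7 ± 0.803 and 78.4 ± 4.26 CPM. It rose by 0.29 in both comparisons (adjusted p = 0.011 in each), and without scramble replicate 3 its adjusted p against scramble was 0.0524.

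The BH3-only genes, which trigger the mitochondrial path upstream of Bax, were not called. Bbc3, the gene for PUMA, averaged 7.37 ± 0.673 CPM in control, 7.85 ± 0.366 in 1C-MIM, with 7.46 ± 0.485 in scramble, and its log2 change against control was 0.09 ± 0.098. Pmaip1, the gene for NOXA, averaged 51.4 ± 3.18, 50.1 ± 2.16 and 53.8 ± 3.19 CPM, with a log2 change of -0.04 ± 0.0639. Apaf1, the scaffold of the apoptosome, averaged 30.7 ± 0.814, 28.7 ± 0.964 and 31.2 ± 0.982 CPM. Its 1C-MIM libraries were the 3 lowest, and its adjusted p was 0.17 against control and 0.095 against scramble. Pidd1, a death-domain adaptor, was low at 3.41 ± 0.399, 3.24 ± 0.566 and 3.15 ± 0.0317 CPM.

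The remaining apoptosis genes showed wide spreads. Fas, a death receptor, stood at 12.4, 10.5 and 10.8 CPM in control, 11.7, 8.01 and 6.87 in 1C-MIM, with 11.2, 11.8 and 13.7 in scramble. The groups overlapped because 1C-MIM replicate 1 lay within the range of the others. Its log2 change was -0.34 ± 0.171 against control (edgeR adjusted p = 0.13) and -0.47 ± 0.171 against scramble (adjusted p = 0.046). Without 1C-MIM replicate 1 the change was -0.59 against control (adjusted p = 0.00435) and -0.72 against scramble (adjusted p = 0.00159). Without 1C-MIM replicate 3 it was -0.19 (adjusted p = 0.391) and -0.31 (adjusted p = 0.157). Against scramble, leaving out any of 7 libraries (all but control replicate 1 and 1C-MIM replicate 1) gave an adjusted p between 0.0566 and 0.157.

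Perp, a membrane protein of desmosomes, was the least abundant member, at 0.85, 1.053 and 1.13 CPM in control, 0.564, 0.691 and 0.639 in 1C-MIM, with 0.752, 0.649 and 1.02 in scramble. Its 1C-MIM libraries lay below control but overlapped scramble. The log2 change was -0.68 ± 0.251 against control (edgeR adjusted p = 0.045) and -0.35 ± 0.261 against scramble (adjusted p = 0.3). Leaving out control replicate 2 or 3, any 1C-MIM library or scramble replicate 1 moved the adjusted p against control to between 0.0586 and 0.13. Eda2r, a receptor for ectodysplasin A2, stood at 149.2, 103.2 and 91.0 CPM in control, 129.8, 128.9 and 128.8 in 1C-MIM, with 120.1, 105.9 and 106.6 in scramble. Only control replicate 1 lay above the 1C-MIM libraries. Eda2r was not called (0.17, adjusted p = 0.39 against control and 0.22, adjusted p = 0.28 against scramble). Without control replicate 1 the change was 0.41 against control (adjusted p = 0.00015) and 0.22 against scramble (adjusted p = 0.00588).

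The 5 repair members moved in both directions. Xpc, which recognises damage in nucleotide excision repair, stood at 25.3, 20.3 and 19.99 CPM in control, 27.7, 32.2 and 30.2 in 1C-MIM, with 21.8, 23.0 and 19.8 in scramble. It rose by 0.46 ± 0.0981 against control (edgeR adjusted p = 0.0029) and by 0.48 ± 0.0986 against scramble (adjusted p = 0.0024). Rev3l, the catalytic subunit of the translesion polymerase zeta, averaged 68.6 ± 7.21, 93.0 ± 6.37 and 72.7 ± 2.82 CPM in control, 1C-MIM and scramble, a rise of 0.44 ± 0.0762 and 0.36 ± 0.0762 (adjusted p = 0.00079 and 0.003). The 1C-MIM libraries of both genes were above all others.

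Polk, another translesion polymerase, went the other way. It stood at 22.8, 21.6 and 20.6 CPM in control, 16.9, 16.7 and 16.7 in 1C-MIM, with 20.8, 21.2 and 21.3 in scramble, with all 1C-MIM libraries below the other 6. It fell by 0.37 on the log2 scale against control (edgeR adjusted p = 0.00053) and by 0.33 against scramble (adjusted p = 0.0011). Rrm2b, the p53-inducible subunit of ribonucleotide reductase, averaged 33.8 ± 1.13, 30.8 ± 2.59 and 35.0 ± 1.12 CPM. It was called lower against scramble alone (-0.18, adjusted p = 0.041, and 0.12 against control), and without control replicate 3, 1C-MIM replicate 1 or 3, or scramble replicate 2 or 3 the adjusted p against scramble was between 0.0521 and 0.145, with a change of -0.12 without 1C-MIM replicate 1. Ddb2, a damage sensor for ultraviolet lesions, was not called at 23.4, 20.8 and 22.3 CPM in control and 22.6, 23.0 and 24.1 CPM in 1C-MIM, and its exons share up to 441 bases with Acp2 on the other strand.

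Among the 3 metabolic members, Sesn2, a leucine sensor that restrains mTORC1, stood at 10.2, 9.94 and 10.9 CPM in control, 15.4, 14.7 and 15.3 in 1C-MIM, with 10.4, 10.1 and 10.9 in scramble. The 1C-MIM libraries were well above the other 6, and the rise was 0.55 ± 0.0722 against control (edgeR adjusted p = 0.00013) and 0.53 ± 0.0724 against scramble (adjusted p = 0.00017). Sesn1, its relative, stood at 81.0, 76.8 and 80.5 CPM in control, 83.2, 107.1 and 96.2 in 1C-MIM, with 84.6, 87.7 and 79.4 in scramble. Its 1C-MIM libraries were above control and overlapped scramble, and it was called against control (0.27, adjusted p = 0.018) but not scramble (0.19, adjusted p = 0.077). Without control replicate 2 or 1C-MIM replicate 2 or 3 the adjusted p against control was between 0.0518 and 0.0783, with a change of 0.18 without 1C-MIM replicate 2, and without 1C-MIM replicate 1 that against scramble was 0.00689. Tigar, which lowers glycolytic flux, was not called at 7.58 ± 0.145, 7.71 ± 1.29 and 8.29 ± 0.627 CPM.

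Calls of 13 members were the same against both comparison groups under all 22 alternative settings tried. Those that rose were Aen, Bax, Btg2, Ccng1, Plk2, Rev3l, Sesn2, Tnfrsf10b, Trp53, Trp53inp1, Xpc and Zmat3, and the one that fell was Polk.

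**Figure D3:**
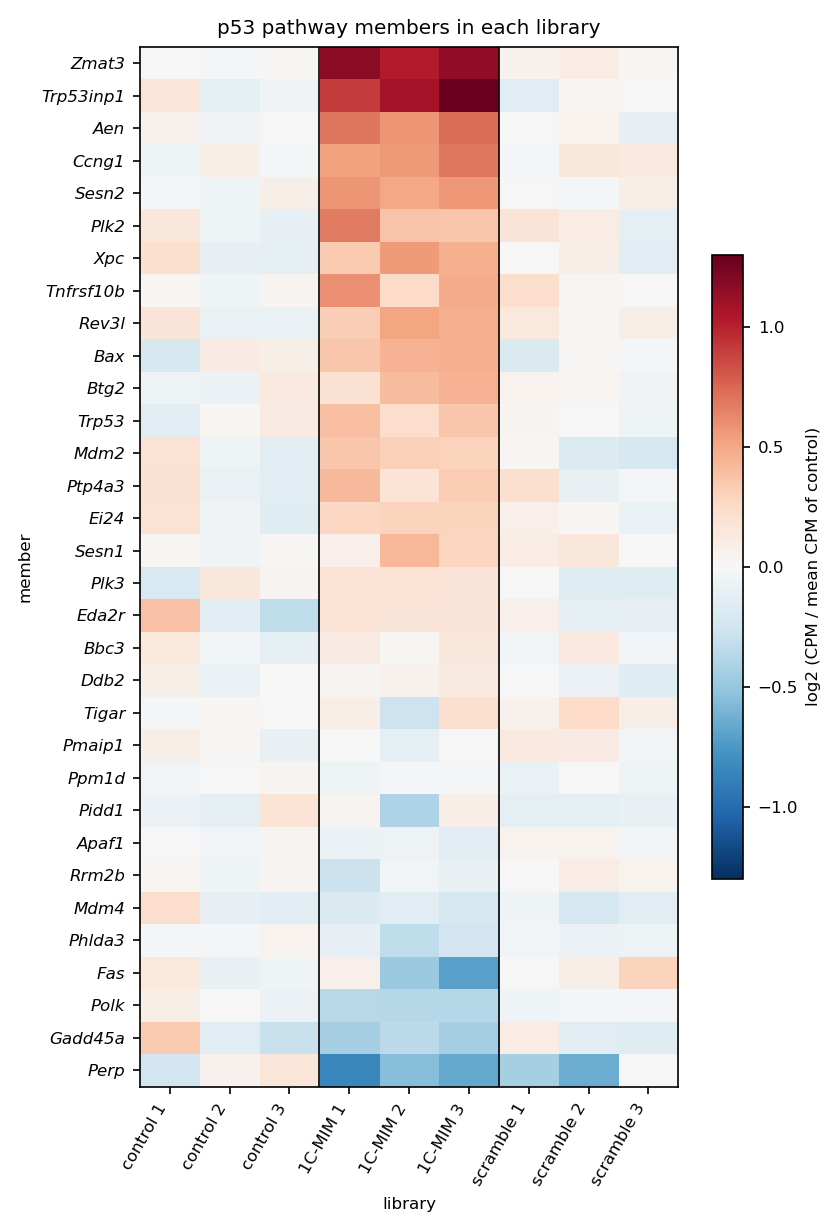
Colour gives log2 of CPM over the mean control CPM for each member (rows, ordered by the edgeR change against control) in each library (columns). The 3 1C-MIM columns are red at the top and blue at the bottom, which follows from the order of the rows. The scramble columns mostly stay close to control, with Perp lower in scramble replicates 1 and 2 (0.752 and 0.649 CPM, control mean 1.01).

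Per transcript length, the members spanned a wide range of levels. By the authors' TPM in control, the most abundant were Gadd45a at 208.8 ± 56.5, Phlda3 at 149 ± 4.72, Bax at 101.9 ± 8.74, Ccng1 at 76.1 ± 2.03 and Trp53 at 70.6 ± 4.23 (SD, n = 3). The least abundant were Perp at 0.737 ± 0.087, Pidd1 at 1.63 ± 0.186 and Tigar at 2.88 ± 0.0392. The 2 members with the largest folds were in the lower part of that order, Zmat3 at 4.21 ± 0.141 and Trp53inp1 at 9.12 ± 1.23 TPM in control. In 1C-MIM these were 9.27 ± 0.526 and 19.8 ± 2.47 TPM.

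Other known targets of p53, a list of 34 genes with 33 tested, were called in both directions. Spata18, with 4 counts in total, was not tested. In each comparison 11 rose (33.3%) and 13 fell, 72.7% called, beside 47.3% of all genes called against control (22.9% higher) and 46% against scramble (22.9% higher), and their median log2 change was -0.05 against control and -0.06 against scramble. Cdkn1a, the cyclin-dependent kinase inhibitor p21, stood at 631, 374 and 369 CPM in control, 808, 701 and 797 in 1C-MIM, with 557, 413 and 389 in scramble. Its 1C-MIM libraries were above all others, and it rose by 0.75 ± 0.226 against control (edgeR adjusted p = 0.026) and 0.76 ± 0.226 against scramble (adjusted p = 0.025). Without control replicate 2 or 3 or 1C-MIM replicate 1 or 3 its adjusted p against control was between 0.0691 and 0.0866. Without 1C-MIM replicate 1 or 3 or scramble replicate 2 or 3 that against scramble was between 0.0667 and 0.0778. Of the targets with the smallest p-values against control, 5 fell and 1 rose. Cmbl, a hydrolase, fell from 11.6 to 5.53 CPM (-1.07), Tnfaip8 from 19.9 to 9.06 (-1.14), and Steap3, a metalloreductase, from 57.1 to 38.0 (-0.59). Ankra2 fell from 23.8 to 16.6 CPM (-0.52) and Dgka, a diacylglycerol kinase, from 35.2 to 25.3 (-0.48), while Ercc5, a nuclease of excision repair, rose from 38.0 to 48.7 (0.36). Against scramble, the stress factor Atf3 was also among the 6 smallest, with a fall from 7.74 to 4.12 CPM (-0.91).

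Regulators and cofactors of p53 were called at a share below or near that of all genes (47.3% against control, 46% against scramble). Of 19 tested, 4 rose and 3 fell against control (36.8%), and 4 rose and 4 fell against scramble (42.1%). The list held 21 genes, and Cdkn2a (0 counts in every library) and Trp73 (2 counts in total) were not tested. Crebbp, the acetyltransferase CBP, rose from 40.1 CPM in control to 65.0 CPM with 1C-MIM (0.70, edgeR adjusted p = 1e-05). Ppp1r13l, the inhibitory family member iASPP, fell from 20.9 to 13.8 CPM (-0.60, adjusted p = 0.00038). Against control the damage kinases Atr and Chek2 fell by 0.33 and 0.35 on the log2 scale, Rchy1, a ubiquitin ligase, rose by 0.23, and Sirt1, a deacetylase, by 0.16. Sirt1 had an adjusted p of 0.0518 to 0.14 against control without any of 6 libraries (control replicates 2 and 3, 1C-MIM replicates 1 and 2, scramble replicates 1 and 3), and Chek2 one of 0.0503 against scramble without scramble replicate 2. The count of risen regulators against control was 2 without control replicate 2 or 3, 1C-MIM replicate 1 or 2, or scramble replicate 3. With upper-quartile factors or library size alone, 2 rose and 5 fell.

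**Figure D4:**
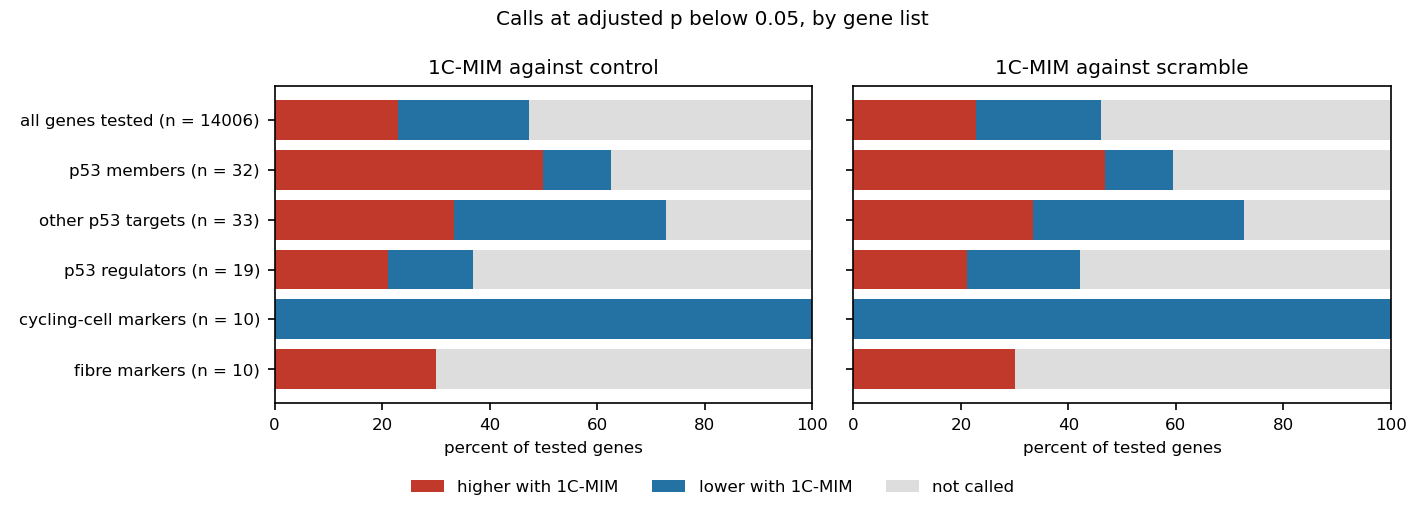
Percent of tested genes called higher (red), lower (blue) or not called (grey) at an adjusted p below 0.05, for all genes and for 5 lists, against control (left) and scramble (right). Of the p53 members 50% are red against control, beside 22.9% of all genes, 33.3% of the other targets and 0 of 10 cycling markers. Members and lists were chosen with earlier results of these data known.

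Markers of cycling cells moved with these changes. All 10 of 10 fell against both groups (median log2 change -1.05 and -1.09), where 20.8% of all genes did. Their summed level was 693 to 857 CPM with 1C-MIM, against 1324 to 1730 CPM for control and 1427 to 1698 CPM for scramble. Of 10 markers of differentiated fibres, 3 were called higher against both groups (Myog, Mymx and Ckm), where 20.1% of all genes were. Myh8 went the other way without a call (-1.155 against control, edgeR adjusted p = 0.1, and -1.108 against scramble, adjusted p = 0.11). Its 1C-MIM libraries were the lowest. Mymk, Actn2, Myh3, Ttn, Tnnt3 and Des were also not called, at log2 changes against control of 1.00, 0.70, 0.34, 0.12, 0.09 and 0.07. The number called higher was 5 against control without control replicate 1. Without the 3 libraries numbered 1 it was 8 against control and 6 against scramble. With the replicate number as a block, 5 rose and 1 fell in each comparison. Over all libraries the summed level of the fibre markers ran from 5499 to 6646 CPM with 1C-MIM, 3551 to 6728 CPM for control and 4239 to 6051 CPM for scramble. Of the markers of satellite cells or undifferentiated myoblasts, Pax7 rose by 0.46 against control (edgeR adjusted p = 0.00056) and 0.34 against scramble (adjusted p = 0.0034). Myf5 was not called. Their sum was 70.4 to 72.3 CPM with 1C-MIM, 56.0 to 65.0 CPM for control and 58.65 to 67.3 CPM for scramble. The part of all these markers in the p53 results was not tested, and in bulk RNA fewer cells of a type and less RNA per cell cannot be told apart. Immune, endothelial, adipocyte and neuron markers summed to at most 2.64 CPM in any library, and epithelial ones to at most 4.37 CPM, with Adgre1 and Epcam at 0 counts throughout.

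The libraries numbered 1 stood apart within their groups. Fibre markers were higher in replicate 1 than in the mean of replicates 2 and 3, by a median log2 difference of 0.91 for control, 0.34 for 1C-MIM and 0.51 for scramble. Cycling markers were lower in replicate 1 for control (-0.40) and scramble (-0.25) and higher for 1C-MIM (0.25), in 10 of 10 genes each. For the p53 members that median was 0.06, 0.01 and 0.04, but single members shifted in both directions. Of the 32, 20 were higher in replicate 1 for control, 17 for 1C-MIM and 20 for scramble. In control, Gadd45a was higher there (232.5 CPM against 166.8 and 150.4) and Bax lower (55.4 against 69.0 and 67.5). Without the 3 libraries numbered 1, 17 members rose and 4 fell against control, and 19 rose and 4 fell against scramble. Under that setting calls over all genes against control also increased, from 6621 with every library kept. The member counts there are therefore descriptive and not a clearer result for p53.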

How the data were processed

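The 9 libraries were grouped by their titles. Libraries came from total RNA by a SMARTer kit, per the labels' protocols. Among the tools in the submitters' processing notes are STAR, featureCounts (Subread 2.0.1), Salmon 1.5.2 and DESeq2 1.28.0, with build GRCm39 and no roles; no source states whether counting used strand. The deposited tables, per the file headers, give a whole-number count, a TPM and an FPKM for each of 33984 RefSeq transcripts. The authors' counts are not normalized. The authors' TPM values, which adjust for transcript length, were used for levels between genes only, and the authors' FPKM values were not tested.

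Transcripts of a gene share reads, so each gene was taken as its transcript with the highest mean count. Tigar was matched by RefSeq accession to an older symbol. Totals were then 29.0 to 33.2 M counts per library. Genes passing filterByExpr were tested with edgeR 4.0.16 (quasi-likelihood, TMM, all 9 libraries in 1 fit, limma 3.58.1, R 4.3.3), and DESeq2 1.42.0 and limma-voom were alternatives. The code of the fit was run on simulated data with independent libraries, which checks the code and not the calls made here. Promoter windows are RefSeq's (GRCm38.p6), and exon overlaps come from a GENCODE annotation. No pair of libraries of the same group agreed within sampling noise.

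The members and lists were chosen with earlier results of these data known. All 32 members could be named; of the other lists, Cdkn1a and up to 6 called genes with the smallest p per list and comparison. Same-numbered libraries deviated together for control and scramble (correlations 0.481, 0.214 and 0.168), but not all pairs with 1C-MIM passed 0.1.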

Additional observations from a re-analysis of the deposited data

How the results depend on the processing

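The members called higher stayed at 12 to 17 against control and 13 to 19 against scramble over the 13 alternatives other than leaving out 1 library. The members called lower against control numbered 2 with no filter on low counts, 2 with limma-voom and 2 at an adjusted p below 0.01, and 2 to 4 when 1 library was left out. Against scramble they numbered 1 at an adjusted p below 0.01, and 1 to 5 when 1 library was left out. With the replicate number as a block, 16 members rose and 4 fell against control and 16 rose and 4 fell against scramble. Over all genes the block gave 7397 calls against control and 7309 against scramble, beside 6621 and 6449 without it. With the block, 0 members were called between scramble and control, and fallen regulators against control moved to 6. Risen regulators against control numbered 2 with upper-quartile factors, library size alone, no filter, the CPM filter, the compared groups alone or an adjusted p below 0.01. Over all genes, transcripts as separate features gave 10160 calls against control and 9834 against scramble. Between scramble and control, DESeq2 called 4 genes, 96 were called without the libraries numbered 1, and 0 to 3 when 1 library was left out. Signs changed only in comparisons where the member was called under no setting. Library size alone gave log2 changes of -0.02263 for Tigar against control and -0.02375 for Ppm1d against scramble, where upper-quartile factors gave -0.006996. Without the libraries numbered 1, Tigar was at -0.02453 against control, and Mdm4 at 0.001458 and Pidd1 at -0.02404 against scramble. Leaving out 1 library, Pidd1 ranged from -0.168 to 0.06201 and Tigar from -0.07963 to 0.1531 against control. Against scramble, Mdm4 ranged from -0.08788 to 0.002082, Ppm1d from -0.008878 to 0.04032, Pidd1 from -0.05381 to 0.1761 and Tigar from -0.2081 to 0.02445. The cause of these shifts was not tested. Depth limits Perp and Pidd1 most, at under 4 CPM.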
